A study of Homo sapiens with 6 samples.

Results

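Replication-dependent histone genes were examined in the clear cell ovarian cancer line OVSAYO through every array probe whose single gene symbol was H1-1 to H1-5 or was H2AC, H2BC, H3C or H4C followed by a number. This rule gave 71 probes of 63 genes, out of 48803 probes and 18852 named genes on the array. H1-10, a linker histone listed here with the replication-independent variants, was not a member, and 1 probe listed for several of these genes was left out. The 71 probes fell into 5 for H1, 17 for H2A, 21 for H2B, 12 for H3 and 16 for H4. RNA was measured on 6 single-colour Illumina arrays, 3 for each group. The miR-30a/30d inhibitor group had been transfected with 44 nM of a hairpin inhibitor of miR-30a and 22 nM of one of miR-30d. The control inhibitor group had received 66 nM of a negative control hairpin based on worm microRNAs with little similarity to human ones. All cultures were of the same line, were transfected with the same lipid reagent and were harvested 48 hours later. Inhibitors are named in the labels of the samples and mimics in the description of the design, and the labels are followed here. The 3 samples of a group are labelled biological replicates with no word on how they were kept apart, and the p-values speak only to the variation among these 6 arrays, which may be technical.

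Replication-dependent histones package newly copied DNA, with H2A, H2B, H3 and H4 forming the core of the nucleosome and H1 binding the DNA between cores. Their genes lie in clusters, are transcribed mainly in S phase, and yield mRNAs that end in a stem-loop bound by the protein SLBP where other mRNAs carry a poly(A) tail. Some of them, H2BC12, H2AC6 and H2BC21 among them, are known to make polyadenylated transcripts as well. Illumina's usual labelling starts from the poly(A) tail, and the labels give the labelling only as Illumina's protocol. Whether a histone signal here came from stem-loop or polyadenylated mRNA was not measured.

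Of the 2 inhibited microRNAs, miR-30a is shown to identify the treatment. The labels do not name the arm, and the 5p arm is given here because it carries the seed that defines the miR-30 family, in capitals (RefSeq, GRCh38.p14, chr6:71403595-71403616, minus strand). No test of pairing between this seed and histone mRNAs was made.
hsa-miR-30a-5p: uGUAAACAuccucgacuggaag

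Promoters of 4 genes, of the classes H2B, H2A and H1, are given with elements near their start sites, and none of H3 or H4 is shown. The genes are among those of the 8 probes with the lowest p, and each window runs from 250 bases before to 50 after the annotated start (RefSeq, GRCh38.p14). Capitals mark the octamer ATTTGCAT, the CCAAT box CCAAT and the TATA box TATAAA on either strand, and TATAAA and its reverse TTTATA overlap once in H2BC12.
H2BC12 promoter (chr6:27146809-27147108, minus strand): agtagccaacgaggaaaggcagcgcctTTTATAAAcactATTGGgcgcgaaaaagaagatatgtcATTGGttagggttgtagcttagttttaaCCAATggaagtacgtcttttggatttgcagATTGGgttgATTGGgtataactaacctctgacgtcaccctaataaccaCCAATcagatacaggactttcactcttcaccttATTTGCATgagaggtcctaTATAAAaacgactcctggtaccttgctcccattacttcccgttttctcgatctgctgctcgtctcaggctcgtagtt
H2BC7 promoter (chr6:26199266-26199565, plus strand): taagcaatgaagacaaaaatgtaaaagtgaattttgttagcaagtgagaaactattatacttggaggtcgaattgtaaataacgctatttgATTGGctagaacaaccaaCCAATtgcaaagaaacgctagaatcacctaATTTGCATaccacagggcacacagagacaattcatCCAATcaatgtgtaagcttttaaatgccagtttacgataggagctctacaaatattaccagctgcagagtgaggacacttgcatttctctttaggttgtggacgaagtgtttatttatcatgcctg
H2AC6 promoter (chr6:26123922-26124221, plus strand): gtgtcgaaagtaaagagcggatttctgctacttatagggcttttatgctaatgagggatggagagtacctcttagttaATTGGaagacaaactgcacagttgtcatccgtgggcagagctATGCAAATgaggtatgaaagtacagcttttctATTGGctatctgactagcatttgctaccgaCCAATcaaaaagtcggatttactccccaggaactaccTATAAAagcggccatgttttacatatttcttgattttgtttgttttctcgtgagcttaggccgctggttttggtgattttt
H1-1 promoter (chr6:26017738-26018037, minus strand): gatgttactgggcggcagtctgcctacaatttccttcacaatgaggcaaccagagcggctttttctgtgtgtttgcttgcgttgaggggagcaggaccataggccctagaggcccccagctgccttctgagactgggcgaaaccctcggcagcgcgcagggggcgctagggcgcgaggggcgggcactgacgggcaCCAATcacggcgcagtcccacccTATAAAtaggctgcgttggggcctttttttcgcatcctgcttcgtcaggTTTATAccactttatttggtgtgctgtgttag

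The H2BC12 window held 1 octamer, 6 CCAAT boxes and 3 TATA box matches, and that of H2BC7 held 1 octamer, 3 CCAAT boxes and no TATAAA. The H2AC6 window, which reaches the start of the oppositely oriented H2BC4, held 1 octamer, 3 CCAAT boxes and 1 TATA box. That of H1-1 held no octamer, 1 CCAAT box and 2 TATA box matches, including TTTATA 19 bases after the start. RefSeq promoters were at hand for 58 of the 63 genes, using the start site listed at the top of the table for each gene. The octamer, to which OCT1 binds in H2B promoters, was present in 14 of 18 H2B and 10 of 14 H2A promoters, in 1 of 9 H3 promoters and in 0 of 5 H1 and 0 of 12 H4 promoters. Over all 27305 promoters of the table, with 1 per gene, 1.8% held it. CCAAT was present in 49 of the 58 histone promoters (84.5%), against 35.7% of all promoters, and was less frequent in H4, with 3 of 12. TATAAA was present in 39 of the 58 (67.2%), against 12% of all. Among H2A genes the octamer was in 4 of the 8 promoters of detected genes and in 6 of the 6 of genes not detected, and among H2B genes in 9 of 12 and 5 of 6. These are matches of letters, not measured binding. In 11 pairs an H2A and an H2B gene started in opposite directions 194 to 248 bases apart. Their windows overlap, so that the same octamer can be counted for both partners. The H2A and H2B counts are thus not independent of each other.

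**Figure D1:**
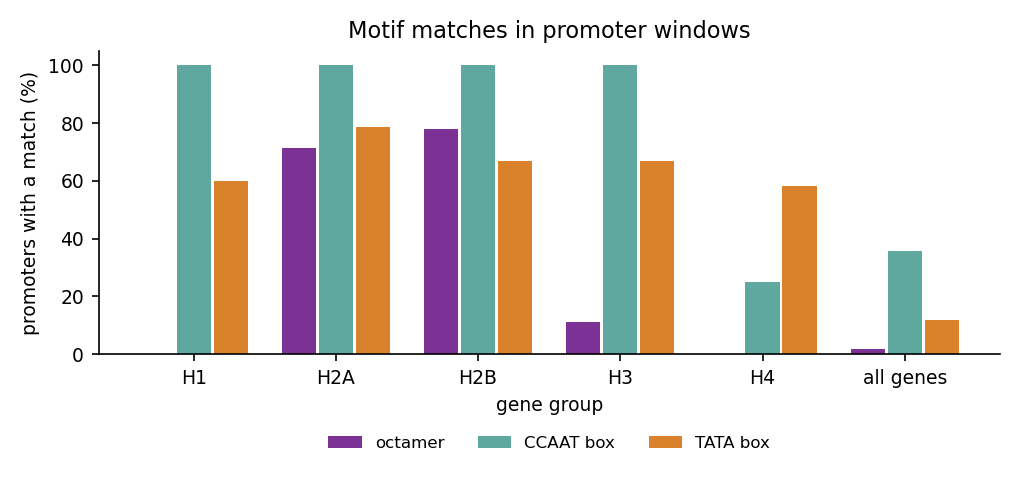
Percentage of promoter windows with a match to the octamer, the CCAAT box or the TATA box, by histone class and over all genes with a listed promoter. Octamer bars reach 71.4% in H2A and 77.8% in H2B, and stand at 0 in H1 and H4 and at 1.8% over all genes.

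The cell identity and the arrays were checked before the histone values were read. All 10 measured markers of clear cell carcinoma and epithelium, among them PAX8, ANXA4 and EPCAM, were detected. Detected were 2 of 8 leukocyte markers, without PTPRC, 3 of 7 fibroblast markers, without COL1A1, and 2 of 6 endothelial markers, without VWF. The mean of those 2 endothelial markers was −0.23, −0.08 and −0.10 on inhibitor replicates 1, 2 and 3 and 0.04, 0.03 and −0.07 on the controls, and its part in the histone values was not tested. Mean raw signal ran from 240.3 to 258.5 on the inhibitor arrays and from 222.6 to 239.9 on the control arrays. On the first principal component, which held 42.1% of the variance, inhibitor replicates 1 and 2 lay at 17.5 and 13.2 and inhibitor replicate 3 at −9.11, while control replicate 2 lay at −15.7 and control replicates 1 and 3 at −4.12 and −1.67. Inhibitor replicate 3 thus lay among the controls, and values without it and control replicate 2 are given where they matter.

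Most replication-dependent histone probes gave a signal above background in these cells. A probe counted as detected when its detection score, which runs from 0 to 1 with the signal, was above 0.95 on 3 or more of the 6 arrays. By that measure 44 of the 71 probes (62%), for 40 of the 63 genes, were detected, 32 of them on all 6 arrays, beside 58.1% of all probes with 1 gene symbol. Detected probes numbered 10 of 12 for H3, 14 of 21 for H2B, 3 of 5 for H1, 9 of 17 for H2A and 8 of 16 for H4. By chromosome, 30 of the 52 genes on chromosome 6, 9 of the 10 on chromosome 1 and the only member on chromosome 12, H4C16, were detected. Single arrays detected 44, 42 and 42 of the 71 histone probes with the inhibitor and 38, 42 and 41 in the controls. Of all probes on the array they detected 45.2%, 44.8% and 44.8% with the inhibitor and 43.6%, 43.4% and 45.2% in the controls.

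**Figure D2:**
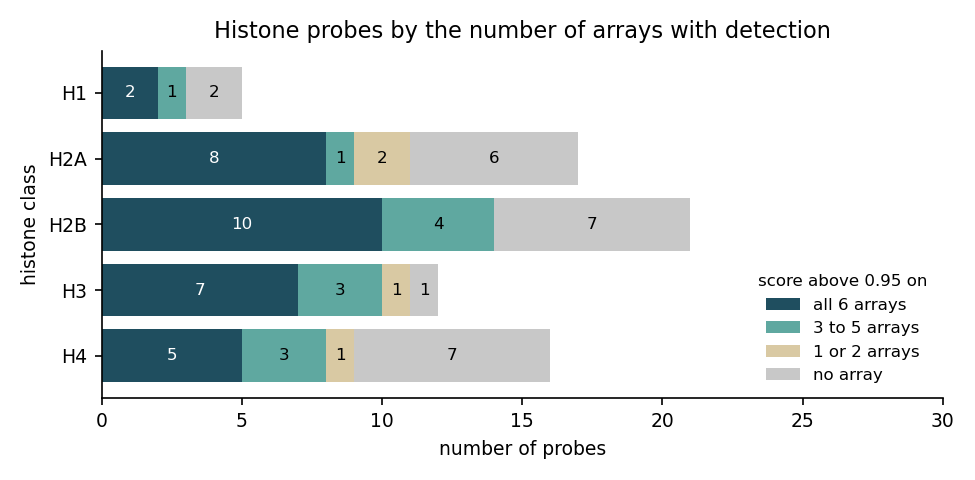
Number of histone probes in each class by how many of the 6 arrays gave a detection score above 0.95. H3 has 1 probe without detection on any array, and H2B and H4 have 7 each.

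No array detected 23 of the probes, whose raw signals were between 33 and 52.2. Among them were H1-4 and H1-5, the H2A genes H2AC1, H2AC7, H2AC12, H2AC14 and H2AC21, and the H2B genes H2BC1, H2BC3, H2BC6, H2BC10, H2BC13 and H2BC17. H2AC1 and H2BC1 are the testis forms of H2A and H2B. H3C2 and the H4 genes H4C4, H4C6, H4C7, H4C9 and H4C13 were also in this set, H4C9 with both of its probes. The remaining probes of the 23 were further probes of H2AC11, H2BC5 and H4C8. The 4 other probes were detected on 1 or 2 arrays only, those of H4C11, H3C12, H2AC4 and H2AC11.

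The threshold divided probes with similar scores. Just inside it, H2BC4 had detection scores of 0.954, 0.909 and 0.943 with the inhibitor and 0.946, 0.954 and 0.959 in the controls. H4C1 and H4C16 were also detected on 3 arrays. Just outside it, H4C11 had 0.970, 0.661 and 0.923 with the inhibitor and 0.952, 0.830 and 0.856 in the controls. All of these are signals at the edge of background. With the score required on all 6 arrays 32 probes were detected, and at a score above 0.99 on 3 arrays 36.

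A total of 7 genes had several probes, and these were not always detected alike. H2BC5 had 2 probes detected on every array and another, listed for a different transcript, detected on none, with mean normalized log2 values of 4.15 with the inhibitor and 4.19 in the controls. H4C8 likewise had 1 probe detected on 6 arrays and 1 on none. The 2 probes each of H2BC12, H2AC18 and H3C13 were detected on every array. RefSeq lists H2AC18 and H2AC19, and H3C13, H3C14 and H3C15, as names of each other, so that these probes may not tell the copies apart. Cross-hybridisation among histone genes was not checked.

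H2A and H2B genes often share a promoter region, and partners were not always detected together. In 11 pairs an H2A and an H2B gene started in opposite directions with 194 to 248 bases between their starts. Both partners were detected in 5 pairs, the H2B gene alone in 3, the H2A gene alone in 2, and neither in 1, the testis pair H2AC1 and H2BC1. H2BC11 was detected on every array while its partner H2AC11 was not above the threshold. In the 5 pairs with both detected, the log2 fold changes of H2A and H2B were 0.12 and 0.20 for H2AC15 and H2BC15 and 0.10 and 0.13 for H2AC8 and H2BC8. They were 0.10 and −0.10 for H2AC20 and H2BC21, −0.10 and 0.01 for H2AC25 and H2BC26, and 0.21 and −0.07 for H2AC6 and H2BC4. Partners thus had the same sign in 2 pairs and opposite signs in 3.

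Between the miR-30a/30d inhibitor and the control inhibitor, histone signals differed little, and no histone probe passed the threshold. Differences are given as log2 fold changes, inhibitor minus control, of background-corrected and quantile-normalized values. Of the 44 detected probes 35 had a positive and 9 a negative log2 fold change, with a median of 0.09, while over all 21928 kept probes 51.7% were positive and the median was 0.01. Limma's adjusted p, by Benjamini-Hochberg over all kept probes and with a threshold of 0.05, was 0.440 or higher for every histone probe, and 0% of all kept probes passed. The highest log2 fold change among them was 0.26, or 1.196-fold, and the lowest −0.28, with standard errors from 0.07 to 0.14. At an unadjusted p under 0.05 there were 5 histone probes higher (11.4%) and 1 lower (2.27%) with the inhibitor, against 4.83% and 5.19% of all kept probes. The groups did not overlap in 7 histone probes that were higher (15.9%) and in 2 that were lower (4.55%) with the inhibitor, against 8.40% and 7.12% of all kept probes. RNA came from whole cultures, so that a change in the share of cells in S phase and a change in histone RNA per cell cannot be told apart.

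The count of 5 higher probes rested on single arrays, and the share of all kept probes called higher moved with them. It was 0 without inhibitor replicate 2, where 3.21% of all kept probes were higher, and 1 without control replicate 1, where 3.36% were. It was 3 without control replicate 2, beside 3.27% of all, and 8 without inhibitor replicate 3, beside 9.59% of all. Without inhibitor replicate 3 and control replicate 2 together it was 6, beside 7.38% of all. With only the brightest probe of each gene, 3 of 40 genes were higher (7.5%) and 1 was lower (2.5%). The median over the 44 probes lay between 0.06 and 0.11 with 1 array left out and was 0.08 without those 2 arrays. Over the 32 probes detected on all 6 arrays the median was 0.07, with 26 positive (81.2%) and 6 negative. Of all 18999 probes detected on all 6 arrays 51.3% were positive, with a median of 0.0. The probes share arrays and in part sequence and are not independent of each other.

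**Figure D3:**
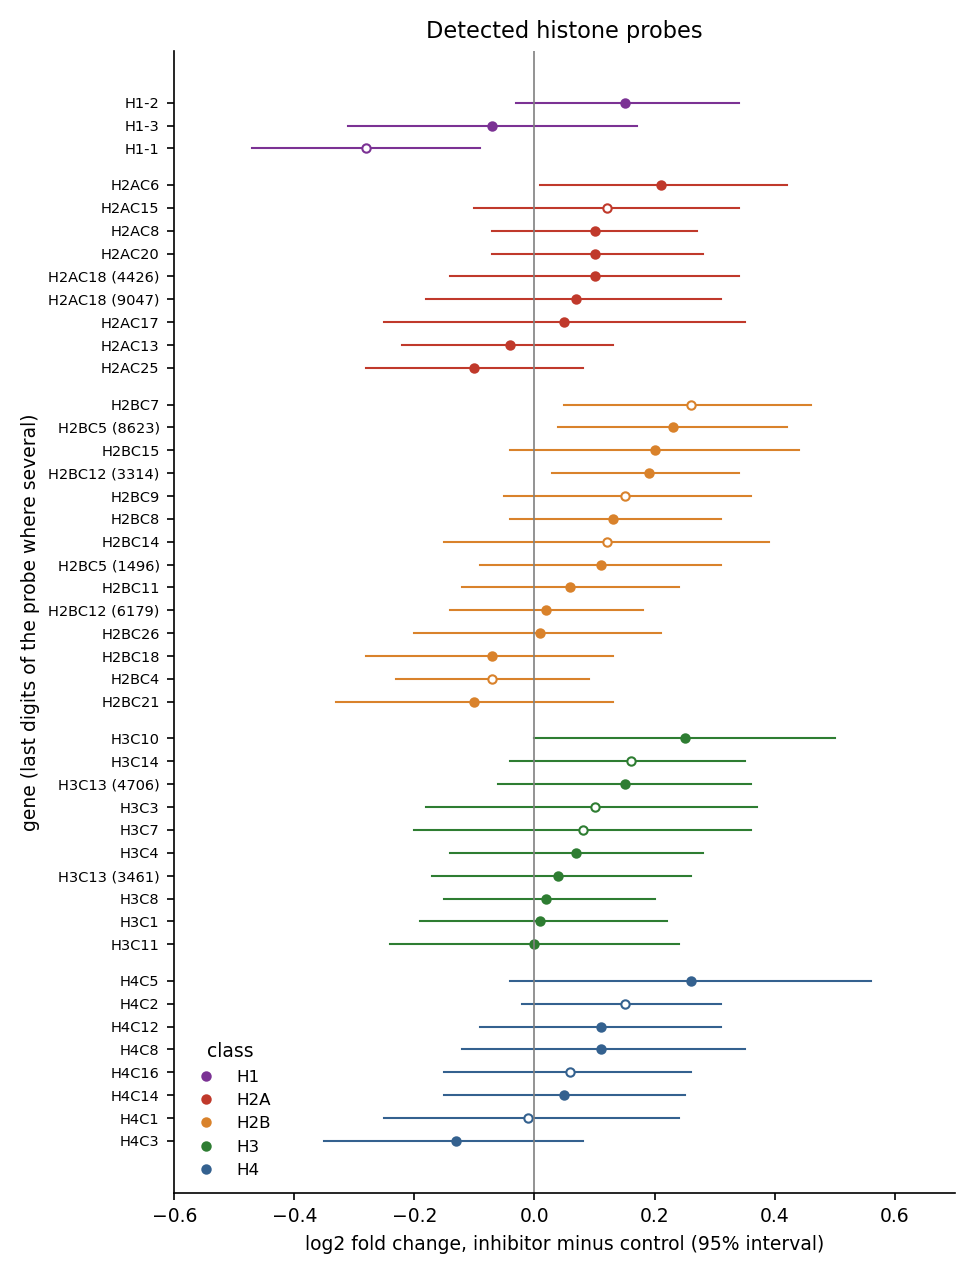
Log2 fold change, inhibitor minus control, of the 44 detected histone probes by class, with 95% intervals from limma; filled points were detected on all 6 arrays and open points on 3 to 5. The points lie between −0.28 and 0.26, with 35 above 0 and 9 below it.

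The 3 detected linker histone probes did not share a direction. H1-1 had normalized log2 values of 4.63, 4.53 and 4.71 with the inhibitor, against 5.02, 4.89 and 4.79 in the controls. All 3 inhibitor values lay below all 3 control values, at a signal close to the 4.12 to 4.55 of probes detected on no array, and 2 of 3 inhibitor arrays and 3 of 3 control arrays detected it. Its log2 fold change was −0.28 ± 0.09 (SE), with a limma adjusted p of 0.440, and this was the only histone probe lower at an unadjusted p under 0.05. It was −0.11 without background correction, −0.13 with the series table and −0.12 with an offset of 50. H1-2, a widely expressed linker histone, had 7.71, 7.78 and 7.65 with the inhibitor and 7.61, 7.63 and 7.43 in the controls. The groups did not overlap, and the log2 fold change was 0.15 with a 95% interval from −0.03 to 0.34, and 0.09 without control replicate 3. H1-3 overlapped between groups, at a log2 fold change of −0.07 ± 0.11 (SE).

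Of the 9 H2A probes 7 had a positive log2 fold change, with a median of 0.10. H2AC6, a canonical H2A gene, had normalized log2 values of 8.23, 8.49 and 8.29 with the inhibitor and 8.17, 8.01 and 8.19 in the controls. The groups did not overlap, with inhibitor replicate 1 just above control replicate 3, and the log2 fold change was 0.21 ± 0.09 (SE; limma adjusted p 0.484), or 0.14 without inhibitor replicate 2. H2AC20, of the chromosome 1 cluster, had 8.36, 8.43 and 8.26 with the inhibitor and 8.22, 8.22 and 8.29 in the controls. Inhibitor replicate 3 fell within the controls there, and the log2 fold change was 0.10 with an interval from −0.07 to 0.28, and 0.06 without inhibitor replicate 2. H2AC25, from a separate small cluster on chromosome 1, had 8.60, 8.77 and 8.64 with the inhibitor and 8.73, 8.75 and 8.83 in the controls, a log2 fold change of −0.10 ± 0.08 (SE) with overlapping groups. It was 0.05 with median centring, under which the median over all kept probes was 0.10, against 0.01 with quantile normalization. Without inhibitor replicate 1 it was −0.065.

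The other H2A probes overlapped between groups. The H2AC18 probe ILMN_2144426 had 8.66, 8.84 and 8.45 with the inhibitor and 8.63, 8.40 and 8.61 in the controls. Its other probe, ILMN_1659047, had 6.94, 7.17 and 6.85 with the inhibitor and 6.91, 6.75 and 7.09 in the controls. Inhibitor replicate 2 was the highest array of its group in both, and the log2 fold changes were 0.10 ± 0.11 and 0.07 ± 0.11 (SE). For the probe ILMN_2144426 it was 0.03 without control replicate 2, 0.01 without inhibitor replicate 2 and 0.20 without inhibitor replicate 3. The value of ILMN_1659047 turned to −0.02 without control replicate 2 and to −0.03 without inhibitor replicate 2, and was 0.155 without control replicate 3 and 0.13 without inhibitor replicate 3. H2AC8, H2AC15, H2AC17 and H2AC13 had log2 fold changes of 0.10, 0.12, 0.05 and −0.04.

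Of the 14 H2B probes 11 had a positive log2 fold change, with a median of 0.12. At an unadjusted p under 0.05, 3 of the 14 were higher (21.4%) and 0 lower, against 4.83% and 5.19% of all kept probes. They were a probe of H2BC12, a probe of H2BC5 and that of H2BC7. The other detected probes of H2BC12 and H2BC5 were not among them. H2BC7 passed the detection filter mainly through the inhibitor arrays, where it was higher. H2BC12, one of the H2B genes with polyadenylated transcripts, was read by 2 probes, whose intervals overlap and whose difference was not tested. Its probe ILMN_1813314 had normalized log2 values of 9.29, 9.37 and 9.34 with the inhibitor and 9.14, 9.17 and 9.14 in the controls. The groups did not overlap, and the log2 fold change was 0.19 ± 0.07 (SE; limma adjusted p 0.463). Its probe ILMN_1796179 had 10.79, 10.77 and 10.85 with the inhibitor and 10.78, 10.76 and 10.79 in the controls. There the groups overlapped, the log2 fold change was 0.02 with an interval from −0.14 to 0.18, and it was −0.01 without control replicate 2 and inhibitor replicate 3.

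H2BC5 was also read by 2 detected probes. Its probe ILMN_1758623 had normalized log2 values of 7.72, 7.83 and 7.55 with the inhibitor and 7.45, 7.44 and 7.51 in the controls. All inhibitor values lay above the controls, inhibitor replicate 3 by the least, and the log2 fold change was 0.23 ± 0.09 (SE; limma adjusted p 0.462). Its probe ILMN_1651496 had 7.74, 7.85 and 7.54 with the inhibitor and 7.58, 7.57 and 7.64 in the controls. Inhibitor replicate 3 was the lowest of the 6 arrays here, and the log2 fold change was 0.11 with an interval from −0.09 to 0.31. It was 0.04 without inhibitor replicate 2 and 0.20 without inhibitor replicate 3.

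Further H2B genes gave lower signals or overlapping groups. H2BC7 had normalized log2 values of 4.64, 4.89 and 4.80 with the inhibitor and 4.58, 4.60 and 4.38 in the controls. The groups did not overlap, at a log2 fold change of 0.26 ± 0.09 (SE; limma adjusted p 0.459), but only 1 of 3 control arrays detected it, so that 2 of the control values were not above background and the value has no firm size. It was 0.11 without background correction. H2BC11 had 7.86, 7.90 and 7.80 with the inhibitor and 7.67, 7.85 and 7.86 in the controls. Only control replicate 1 stood below the inhibitor arrays there, and the log2 fold change was 0.06 ± 0.08 (SE), or 0.00 without control replicate 1 and 0.04 without inhibitor replicate 2. H2BC8 did not overlap between groups, at 0.13 ± 0.08 (SE), and H2BC4, at the edge of detection, was lower without overlap at −0.07 ± 0.07 (SE). H2BC15, H2BC9, H2BC14 and H2BC26 overlapped, at 0.20, 0.15, 0.12 and 0.01, as did H2BC18 and H2BC21 at −0.07 and −0.10.

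All 10 H3 probes had a log2 fold change of 0 or above, with a median of 0.07, and in none did the groups separate. H3C10 had normalized log2 values of 5.78, 5.69 and 5.38 with the inhibitor and 5.24, 5.51 and 5.36 in the controls. Inhibitor replicates 1 and 2 lay above the controls and inhibitor replicate 3 among them, and the log2 fold change was 0.25 ± 0.11 (SE; limma adjusted p 0.497). It was 0.43 without control replicate 2 and inhibitor replicate 3, and 0.13 without background correction. The 2 probes of H3C13 had 0.15 and 0.04, and H3C14 had 0.16. H3C3, H3C7, H3C4, H3C8, H3C1 and H3C11 had 0.10, 0.08, 0.07, 0.02, 0.01 and 0.00, with intervals that all included 0.

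Of the 8 H4 probes 6 had a positive log2 fold change, with a median of 0.08. H4C3 had normalized log2 values of 12.11, 12.24 and 12.47 with the inhibitor and 12.43, 12.40 and 12.39 in the controls. The controls lay close together while inhibitor replicates 1 and 2 lay below them and inhibitor replicate 3 above, and the log2 fold change was −0.13 with an interval from −0.35 to 0.08. It was −0.054 without inhibitor replicate 1, −0.235 without inhibitor replicate 3, −0.24 without inhibitor replicate 3 and control replicate 2, and −0.01 with median centring. H4C5 had 4.61, 5.19 and 5.04 with the inhibitor and 4.62, 4.62 and 4.83 in the controls. Inhibitor replicates 2 and 3 lay above the controls and inhibitor replicate 1 below them, at a log2 fold change of 0.26 ± 0.14 (SE; limma adjusted p 0.545). It was 0.42 without inhibitor replicate 1, 0.135 without inhibitor replicate 2 and 0.11 without background correction.

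H4C2 was the H4 probe without overlap, with 4.75, 4.82 and 4.78 with the inhibitor and 4.58, 4.64 and 4.69 in the controls. It was detected on 3 of 3 inhibitor and 2 of 3 control arrays, close to the 4.12 to 4.55 of histone probes detected on no array. Its log2 fold change was 0.15 ± 0.07 (SE; limma adjusted p 0.523), or 0.06 without background correction. H4C12, H4C8, H4C16, H4C14 and H4C1 overlapped between groups, at 0.11, 0.11, 0.06, 0.05 and −0.01.

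**Figure D4:**
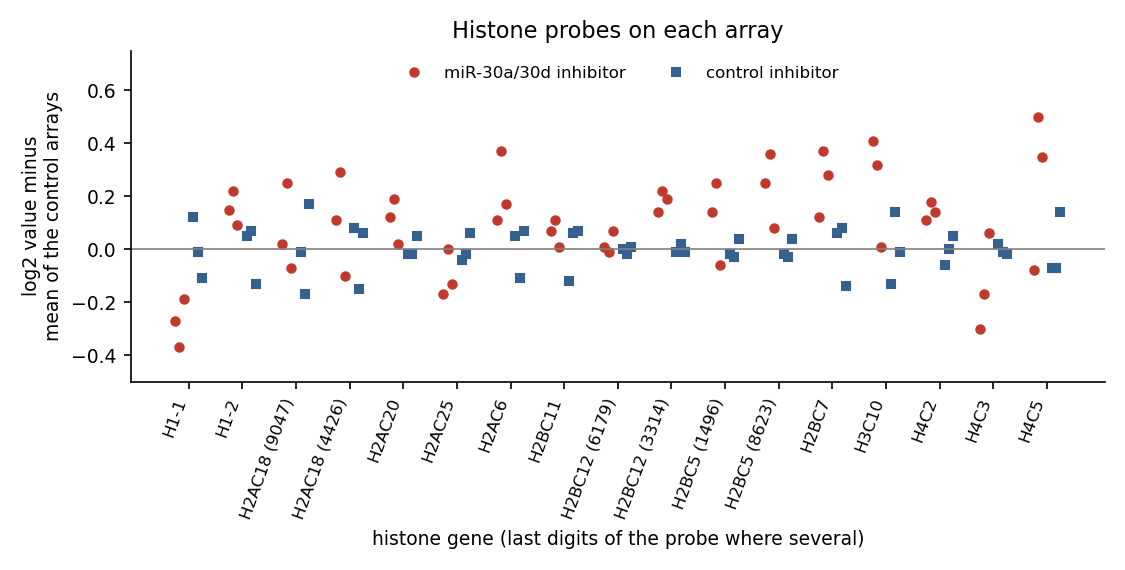
Normalized log2 value of 17 histone probes on each array, minus the mean of the 3 control arrays for that probe; circles are miR-30a/30d inhibitor arrays and squares control inhibitor arrays, with replicates 1 to 3 from the left. H1-1 lies below its controls on all 3 inhibitor arrays, and H2BC12 at probe ILMN_1813314, H2BC5 at probe ILMN_1758623, H2BC7, H2AC6, H1-2 and H4C2 lie above theirs.

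Array by array, the mean over all detected histone probes was highest on inhibitor replicate 2. Averaged over the 44 probes, the log2 distance from the control arrays' mean was 0.04, 0.13 and 0.04 on inhibitor replicates 1, 2 and 3, against −0.02, 0.00 and 0.02 on the controls. By class, inhibitor replicates 1, 2 and 3 had 0.09, 0.15 and 0.02 for H2B, 0.04, 0.17 and −0.01 for H2A, and 0.07, 0.13 and 0.06 for H3. H4 differed in its order of arrays, with −0.05, 0.11 and 0.16. The control arrays ran from −0.06 to 0.08 in these 4 classes. For the 3 H1 probes, which did not share a direction, the mean was −0.03, −0.04 and −0.13 on inhibitor replicates 1, 2 and 3. It was 0.06, 0.07 and −0.13 on control replicates 1, 2 and 3.

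The cell cycle lists did not follow the array order of the mean over all detected histone probes. The H4 probes, at −0.05, 0.11 and 0.16, were like these lists highest on inhibitor replicate 3. The mean over 28 measured S phase genes was −0.08, −0.07 and 0.08 on inhibitor replicates 1, 2 and 3 and −0.02, 0.05 and −0.03 on the controls. That over 24 mitosis genes was −0.08, −0.10 and 0.11 with the inhibitor and −0.03, 0.04 and −0.01 in the controls. Inhibitor replicate 2, the array with the highest histone mean, was thus among the lowest for both cell cycle lists, and inhibitor replicate 3 was the highest. The part of cell cycle differences in the histone values was not tested.

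**Figure D5:**
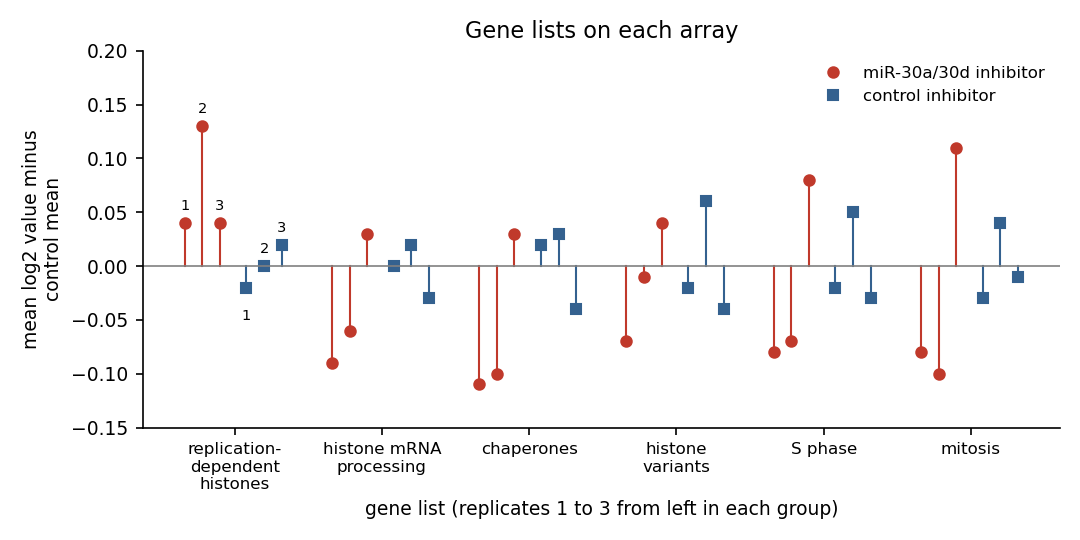
Mean log2 value of each gene list on each array minus its mean over the control arrays; circles are miR-30a/30d inhibitor and squares control inhibitor arrays. Histone means are at 0.04, 0.13 and 0.04 on the inhibitor arrays, and S phase and mitosis means are highest on inhibitor replicate 3, at 0.08 and 0.11.

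Genes that make and handle histone mRNA were divided in direction, and none passed the threshold. Of 24 measured genes of histone mRNA processing and decay 11 had a positive and 13 a negative log2 fold change, with a median of −0.06. At an unadjusted p under 0.05 there were 2 higher and 4 lower, beside 4.83% and 5.19% of all kept probes. Over all kept probes the groups did not overlap in 8.40% that were higher and 7.12% that were lower. SLBP, which binds the histone stem-loop, had normalized log2 values of 8.01, 8.05 and 8.20 with the inhibitor and 8.25, 8.38 and 8.30 in the controls. Its groups did not overlap, at a log2 fold change of −0.22 ± 0.08 (SE; limma adjusted p 0.459). UPF1, a helicase of histone mRNA decay, and TUT4, a uridylyltransferase, were also lower without overlap, at −0.20 and −0.21. CSTF2T, a form of a cleavage factor subunit, was higher without overlap at 0.19. Each list gene is given by the kept probe with the highest mean. NPAT, the coactivator of histone transcription, had −0.21 with overlapping groups, a value picked after it was seen. Of the genes not yet named, LSM1 and TUT7 had a lower p than NPAT. LSM1 was higher without overlap at 0.17, and TUT7 had −0.20 with overlapping groups.

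Histone chaperones and variants gave similarly small differences. Of 23 chaperone and assembly genes 8 were positive and 15 negative, with a median of −0.08. At an unadjusted p under 0.05, where 4.83% of all kept probes were higher and 5.19% lower, there were 0 higher and 2 lower. These were SUPT6H, a transcription elongation factor and histone chaperone, at −0.31 ± 0.09 (SE; limma adjusted p 0.440), and NAP1L4, an H2A and H2B chaperone, at −0.21 ± 0.09 (adjusted p 0.490). IPO4, the importin for H3 and H4, and DAXX, an H3.3 chaperone, had −0.16 and −0.15. On inhibitor replicates 1, 2 and 3 the mean of this list was −0.11, −0.10 and 0.03, against 0.02, 0.03 and −0.04 on the controls. Of 11 genes listed as replication-independent histone variants 5 were positive and 6 negative, with a median of −0.06. CENPA, the centromeric H3, and H3-3A, which encodes H3.3, were higher without overlap at 0.14 and 0.13, while H2AX and H2AZ1 had −0.14 and −0.11. Higher without overlap were 8.40% of all kept probes. At an unadjusted p under 0.05 there were 0 variants in either direction.

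The S phase and mitosis genes were divided in direction. S phase genes had 12 positive and 16 negative values, with a median of −0.01. GINS4, a subunit of the replicative helicase, had 0.20 ± 0.08 (SE; limma adjusted p 0.463) and E2F2, an activator of S phase genes, −0.16. Thymidylate synthase TYMS and the polymerase subunit POLA1 had −0.18 and −0.16. Mitosis genes had 11 positive and 13 negative, with a median of −0.01, and TPX2, a spindle assembly factor, had −0.27 ± 0.09 (SE; limma adjusted p 0.448). TPX2 was the only gene of the list at an unadjusted p under 0.05, beside 10.0% of all kept probes in either direction. PTTG1 and TOP2A had 0.12 and −0.16. CENPA was also in the mitosis list and MCM2 in both the chaperone and the S phase list, and of the 108 genes measured in the 5 lists 0 passed the threshold.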

How the data were processed

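The members and gene lists were chosen with earlier results of these data known. Per the labels, total RNA was labelled with biotin. Per the file headers, the authors deposited for each array the mean bead signal per probe, a linear intensity that is not normalized between arrays, its SD over beads, the number of beads and a detection score, taken here as the complement of a detection p-value. BeadStudio was the tool, per the submitters' processing notes, in a version not stated there. A series table holds an intensity per probe that the authors mapped onto control replicate 1. The tables carry different identifiers and were joined through the probe ranks over the 6 arrays, unique for all 48803 probes and right in 5-array joins for each left-out array. Symbols came from the platform annotation (28098 probes with 1 symbol, 13 with several, 20692 with none here). All 71 histone probes matched RefSeq's GRCh38.p14 table by Entrez identifier.

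Signals were processed with neqc (limma 3.58.1, R 4.3.3, offset 16). Probes with a score above 0.95 on 3 arrays were kept (21928), and lmFit and eBayes tested inhibitor minus control, two-sided, without a replicate block, with Benjamini-Hochberg adjustment. Correlations of same-numbered deviations were 0.0890, −0.258 and −0.213. They showed no evident pairing by replicate number, but without differently numbered pairs beside them they cannot exclude it. The procedure was tested on simulated data whose changes were all larger than those of the histone probes. That test therefore does not show whether changes of the histone size would be called. Named with values on each array are up to 12 detected histone probes with the highest mean and up to 8 with the lowest p, and of each list up to 4 genes with the lowest p. NPAT, LSM1 and TUT7 were named outside that rule. Arrays have no read depth, and their number limits the precision. Figures were drawn with matplotlib 3.10.9.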

Additional observations from a re-analysis of the deposited data

How the results depend on the processing

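Histone probes, all probes and genes of the 5 lists past limma's threshold numbered 0 under each of 17 alternative fits, and the lowest adjusted p of a histone probe over them was 0.116, without inhibitor replicate 3. Leaving out both inhibitor replicate 3 and control replicate 2 was chosen after the data were seen. Histone probes higher at an unadjusted p under 0.05 numbered 5, and 3 without background correction, with the series table, with an offset of 50 or at a detection score above 0.99, 10 with array weights, 13 with median centring and from 0 to 8 with 1 array left out. Of all kept probes 7.96% were higher with array weights, 18.7% with median centring and 2.96% to 9.59% with 1 array left out, against 4.83%. The count of lower probes was 1, and 0 with detection on all 6 arrays, 2 without both of those arrays, and 1 to 2 over the fits that leave out 1 array. Detected histone probes were 44, 32 and 36 under the 3 detection rules. The histone median of 0.09 was 0.15 with median centring, where the median of all kept probes was 0.10, and lay from 0.06 to 0.11 with 1 array left out. Without background correction it was 0.04, with the series table or an offset of 50 it was 0.05, and its sign was positive in all 17. With the replicate block the counts were 4 higher and 1 lower and the median 0.09, and no call changed. Of 17 named probes 3 changed sign in some fit. H2AC25 was 0.054 with median centring, and the H2AC18 probe ILMN_1659047 was −0.019 without control replicate 2 and −0.026 without inhibitor replicate 2, with 0.155 the highest when 1 array was left out. The H2BC12 probe ILMN_1796179 was −0.001 without inhibitor replicate 3, with 0.044 the highest when 1 array was left out, and −0.009 without both arrays. The cause was not tested. Signal over background limits 27 of the 71 histone probes, which were not detected.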

Other observations

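The bead data describe how precisely each array measured the histone probes. A detected histone probe was read from 20 to 69 beads on an array, with a median of 38. The standard error over beads was 1.95% to 6.71% of the raw signal, with a median of 3.88%. Between arrays of a group the raw signal of these probes had a median coefficient of variation of 5.74% with the inhibitor and 5.42% in the controls, before normalization. Beads of an array share a culture and a labelling and are no replicates of the treatment.

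Raw signals of 3 members are given as examples and do not span the range of that spread. H4C3 had raw signals of 4718.3, 4844.4 and 6091.8 with the inhibitor and 4979.6, 5333.8 and 5217.9 in the controls, with a coefficient of variation of 14.5% and 3.49%. H2BC12 had 699.2, 679.9 and 743.1 at probe ILMN_1813314 with the inhibitor and 526.9, 591.1 and 575.3 in the controls. H1-1 had 52.4, 45.8 and 51.2 with the inhibitor and 58.7, 58.5 and 54 in the controls. In H4C3 the inhibitor arrays varied more than the controls, and this difference in spread was not tested. Its coefficient of variation on the inhibitor arrays was the highest of any detected histone probe.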
